A study of Homo sapiens with 9 samples.

Results

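HIF2α knockout 786-0 cells (KO) were compared with untreated parental 786-0 cells (WT) by RNAseq, with 3 libraries in each group. These 6 of the 9 libraries in the series were chosen by their labels, and the comparison covered every gene with enough counts. Of 58735 genes listed, 15192 passed the filter on low counts and were tested. 786-0 is an established cell line of clear cell renal carcinoma, the most common kidney cancer. The line lacks working VHL and holds an inactivated HIF1A gene, a background that the WT and KO groups share, so HIF2α is present in the parental cells even at normal oxygen. WT cells had the parental genotype and KO cells the knockout of HIF2α, which is encoded by EPAS1. Both groups were grown at 21% oxygen for 48 h in DMEM with 5 mM glucose and 10% fetal bovine serum, and neither received a drug. WT cells given 10 μM PT2385, a HIF2α antagonist, for the same 48 h (3 libraries) are shown beside them where a level without the knockout helps. The labels name 1 knockout line. How it was made and whether it is 1 clone are not given in the sources used here, so effects of losing HIF2α and other differences between the 2 lines cannot be told apart. Replicates are numbered but not said to be separate cultures, so p-values measure the spread between these libraries, which may be technical.

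HIF2α is an oxygen-regulated transcription factor. Prolyl hydroxylases of the EGLN family use oxygen to mark the HIF-α subunits, and VHL then directs the marked protein to degradation. Where VHL is lost, HIF2α accumulates, pairs with ARNT and binds hypoxia response elements near genes for vessel growth, glucose uptake, pH control and iron handling. This is the usual state of clear cell renal carcinoma, and PT2385 blocks it by keeping HIF2α from pairing with ARNT.

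The libraries held 11881000 to 12296841 counted reads in WT and 12893484 to 14730081 in KO. Levels are given as CPM, read counts scaled to a common library total by TMM. The scaling factors were 0.988 to 1.016 when all 9 libraries were scaled together. WT and KO levels in CPM come from a scaling of these 6 libraries alone, and means with PT2385 from that of all 9. As a check of the tissue, the renal transcription factor PAX8 had 7320 to 9881 counts in all 6 libraries and the keratins KRT8 and KRT18 at least 1722. Defining markers of other cells were at or near 0: PTPRC of leukocytes, PECAM1 and VWF of endothelium, and COL1A2, COL3A1 and DCN of fibroblasts had 0 counts in every library. Over 12 markers each, leukocyte genes summed to 1.53 to 1.996 CPM in KO and 1.73 to 2.01 CPM in WT and fibroblast genes to 10.1 to 12.8 CPM and 10.3 to 12.9 CPM, and 10 endothelial genes summed to 7.44 to 9.55 CPM and 4.05 to 6.11 CPM. The tubule markers LRP2 and UMOD and the carcinoma marker CA9 were also listed at 0 in all 6 libraries. In RNA from whole cultures, fewer cells of a kind and less RNA per cell cannot be told apart.

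EPAS1 (ENSG00000116016, GRCh38 chr2:46293667-46386697, plus strand) was checked first because it is the targeted gene. It had 270.1, 263 and 230.2 CPM in WT replicates 1, 2 and 3 and 20.3, 25.1 and 21.1 CPM in KO. All 3 KO libraries lay far below all 3 WT libraries, and the PT2385-treated libraries averaged 239 CPM. The log2 fold change was -3.52 (SE 0.0963, adjusted p = 2.15e-09, edgeR's quasi-likelihood test with Benjamini-Hochberg adjustment over all tested genes, which gave every adjusted p below). The reads that remained in KO cannot be placed within the gene from a table of counts per gene. Of 19 other tested genes within 2 Mb of EPAS1, 5 were higher in KO and 0 were lower, where 14.7% of all tested genes were higher and 15.4% lower. EPCAM, an epithelial adhesion molecule, had a log2 fold change of 1.19, and the others were PRKCE (0.58), SOCS5 (0.31), TTC7A (0.36) and PREPL (0.33, with an adjusted p of 0.0536 without WT replicate 2).

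Of the 15192 genes tested, 4566 (30.1%) were differentially expressed at an adjusted p under 0.05, which was the threshold throughout. They comprised 2230 genes that were higher in KO (14.7% of those tested) and 2336 that were lower (15.4%). The counts of each gene list below are to be read against these shares. A change of at least 2-fold was found for 547 of the higher and 496 of the lower genes, and of at least 4-fold for 179 and 169. Without regard to any test, the values of the WT and KO groups did not overlap for 6695 genes (44.1%). The median log2 fold change over all tested genes was 0.004. Calls were more frequent among abundant genes, from 17.7% in the lowest quartile of mean counts to 39.3% in the highest. They covered 33.9% of 11800 protein-coding genes and 18.6% of 1857 long non-coding RNA genes. The strandedness of counting is not given in the sources used here, so for 31 of the genes named here, which overlap another gene on the opposite strand (C1QL1, CP, CCND1, LAMA5, NID2 and MATN2 among them), reads of both genes cannot be told apart. POU5F1, KRT8, KRT18, histone and ribosomal protein genes have near-identical copies that can share reads.

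The HIF subunits and oxygen sensors, a list that includes EPAS1 itself, moved in both directions. Of 9 tested members, 2 were higher (HIF1A and EGLN1), 3 were lower (EPAS1, ARNT2 and EGLN3) and 4 did not pass the test. HIF3A had 0 counts in all 6 libraries. HIF1A had 25.3, 21.5 and 16.4 CPM in WT and 33.7, 44.3 and 31.2 CPM in KO. Every KO library was above every WT library, although by a modest margin, and the log2 fold change was 0.79 (SE 0.163, adjusted p = 0.00364). With PT2385 the HIF1A level averaged 28.2 CPM, and KO set against PT2385-treated cells directly did not pass the test (log2 difference 0.37, adjusted p = 0.138). ARNT2, a relative of the HIF partner ARNT that is encoded on chromosome 15, had 12.5, 11.1 and 12.9 CPM in WT and 7.11, 5.16 and 5.85 CPM in KO. These ranges did not overlap, KO being lower (log2 fold change -1.01, adjusted p = 4.85e-04). ARNT, VHL, EGLN2 and the asparagine hydroxylase HIF1AN did not pass the test, with log2 fold changes of 0.071, 0.029, -0.071 and -0.095.

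The prolyl hydroxylases EGLN1 and EGLN3, both known HIF targets, changed in opposite directions. EGLN3 had 133, 119 and 137 CPM in WT, 2.48, 1.88 and 2.89 CPM in KO and a mean of 14.8 CPM with PT2385. The KO libraries were all far below the WT libraries, with a log2 fold change of -5.74 (SE 0.123, adjusted p = 5.46e-10). EGLN1 had 72.8, 71.8 and 72.5 CPM in WT, 166, 164 and 172 CPM in KO and a mean of 76.4 CPM with PT2385. All KO libraries were above all WT libraries (log2 fold change 1.21, SE 0.0579, adjusted p = 7.91e-08). EGLN1 (GRCh38 chr1:231363751-231422287) lies inside a stretch where most genes were higher in KO, which is described with the chromosomes.

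**Figure D1:**
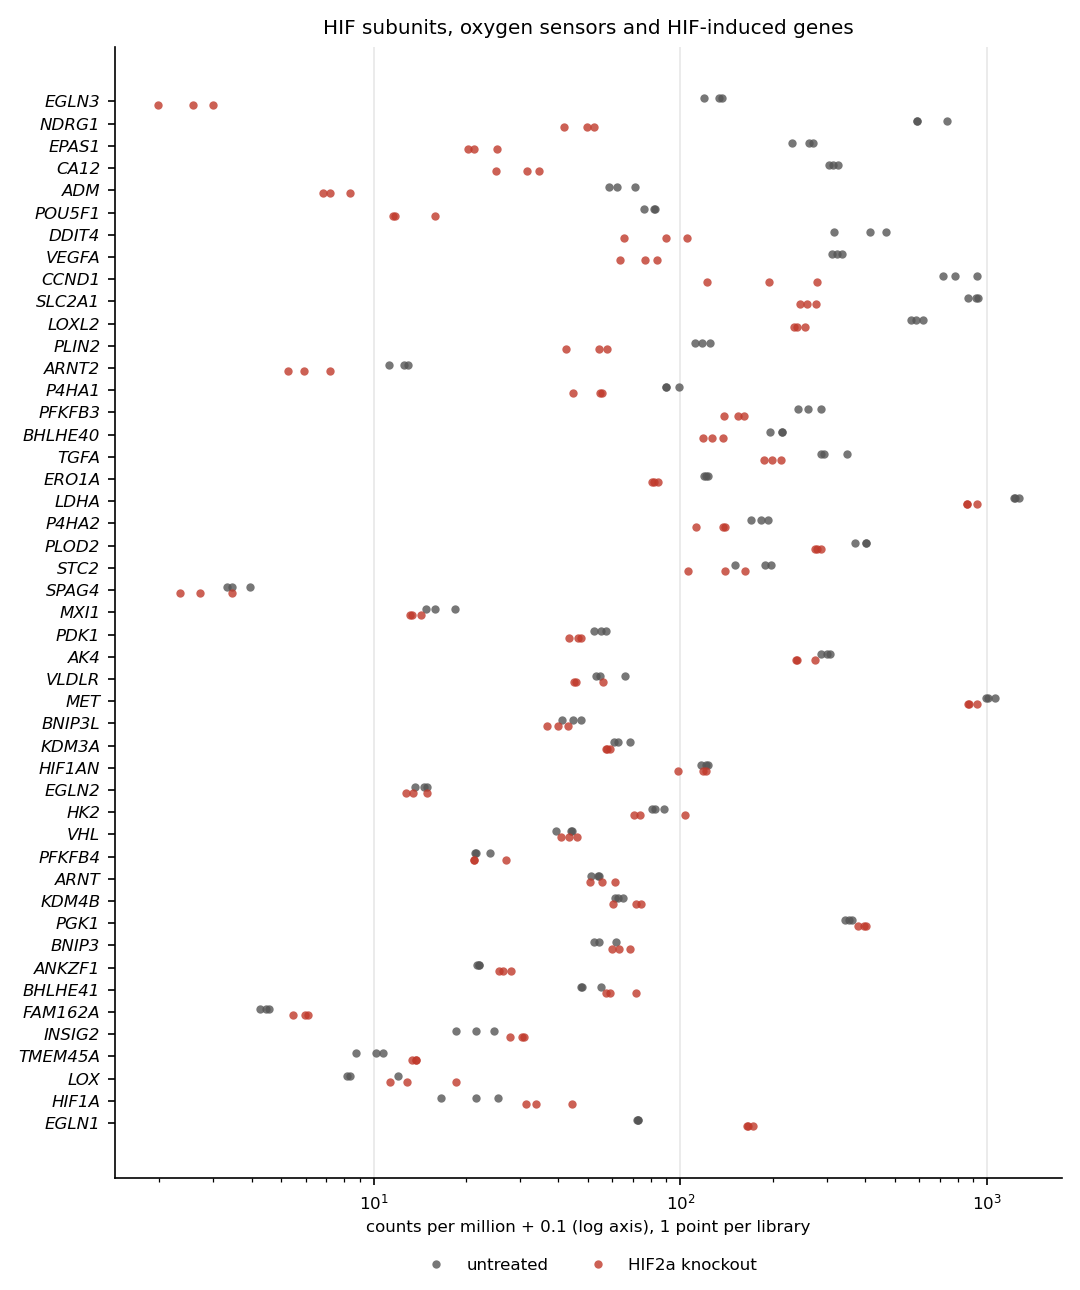
CPM + 0.1 (log axis) of tested HIF subunits, oxygen sensors and HIF-induced genes in each WT (untreated, grey) and KO (red) library, with 1 point per library and genes ordered by log2 fold change. EGLN3, at the top, had 1.88 to 2.89 CPM in KO against 119 to 137 CPM in WT, and EGLN1, at the bottom, had 164 to 172 CPM in KO against 71.8 to 72.8 CPM in WT.

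HIF-induced genes were mostly lower in KO. Of 41 tested members, 24 were lower, 5 were higher and 12 did not pass the test, with a median log2 fold change of -0.40. Leaving out each library in turn, 20 of the 24 lower calls and 2 of the 5 higher calls held in all 6 fits, and the 7 others had log2 fold changes from -0.40 to 0.47. The higher count was 3 without WT replicate 1 or WT replicate 3. NDRG1, a stress-induced growth regulator, had 739, 591 and 589.5 CPM in WT and 49.3, 52.3 and 41.6 CPM in KO. VEGFA, the vessel growth factor, had 335, 324 and 312 CPM in WT and 83.8, 63.4 and 76.3 CPM in KO. In both genes each KO library was below each WT library, and the log2 fold changes were -3.74 (adjusted p = 2.82e-09) and -2.12 (adjusted p = 3.72e-08). CA12, a carbonic anhydrase that controls pH at the cell surface, had 325, 313 and 304 CPM in WT and 31.5, 25.02 and 34.6 CPM in KO (log2 fold change -3.37). The vasodilator peptide ADM fell by 3.11 on the log2 scale, the stress-induced inhibitor of mTOR signalling DDIT4 by 2.21, the pluripotency factor POU5F1 by 2.62 and the lipid droplet coat protein PLIN2 by 1.20.

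Glucose-handling genes of the same list differed among themselves. SLC2A1, the main glucose transporter of these cells, had 862, 919.7 and 929.8 CPM in WT and 276, 246 and 258 CPM in KO, with no overlap (log2 fold change -1.80). LDHA, which makes lactate from pyruvate, had 1229, 1220 and 1268 CPM in WT and 858, 928 and 859 CPM in KO. The KO libraries were again all lower, by 0.49 on the log2 scale (SE 0.0556, adjusted p = 6.53e-05). PFKFB3, which makes the activator of phosphofructokinase, fell by 0.80. PGK1, HK2 and PFKFB4 did not pass the test (log2 fold changes 0.15, -0.027 and 0.052; without KO replicate 3, PGK1 was called higher at 0.18 and HK2 lower at -0.22), nor did the mitophagy receptors BNIP3 (0.19) and BNIP3L (-0.16). Over the separate list of glycolysis and lactate export, 2 of 21 tested genes were higher (9.52%) and 6 were lower (28.6%). Of these calls, 1 and 6 held in every fit without 1 library, and 5 genes were higher without KO replicate 3. The enolase ENO2, a member of that list, fell by 2.43.

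The remaining members of the list act on collagen, on the cell cycle and on transcription. The collagen-modifying enzymes LOXL2, P4HA1, P4HA2 and PLOD2 fell by 1.28, 0.85, 0.49 and 0.49 on the log2 scale, while LOX did not pass the test (log2 fold change 0.59, adjusted p = 0.0543) but was higher without WT replicate 2 (0.78) or KO replicate 2 (0.73) and by DESeq2 (0.59). The growth factor TGFA fell by 0.64, the oxidase ERO1A by 0.56 and the repressor BHLHE40 by 0.71. CCND1, the G1 cyclin that HIF2α is known to drive in renal carcinoma, had 717, 784 and 924 CPM in WT and 195, 122 and 278 CPM in KO. The KO libraries differed more among themselves than those of most genes, yet all were below the WT range (log2 fold change -2.02, SE 0.225). INSIG2, which restrains sterol synthesis, and EGLN1 were the 2 members that were higher in KO in every fit, INSIG2 with a log2 fold change of 0.46 (adjusted p = 0.00866).

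KO cells were also compared directly with PT2385-treated cells, where 2897 of 15402 tested genes (18.8%) differed. Both groups had been set against the same WT libraries, so this direct test and not the resemblance of fold changes was used. VEGFA averaged 75.3 CPM with PT2385 and its difference from KO did not pass the test (log2 difference -0.02, adjusted p = 0.926), and NDRG1 averaged 55.6 CPM (log2 difference -0.22, adjusted p = 0.155). EGLN3, CA12 and ENO2 were lower in KO than with PT2385, with log2 differences of -2.61, -1.93 and -1.34. PFKFB3 was lower as well (-0.64), its mean with PT2385 being 235 CPM. CA12 lies on chromosome 15, where the median log2 difference of KO from PT2385-treated cells was -0.556. SLC2A1 and LDHA were higher in KO than with PT2385, by 0.49 and 0.24 on the log2 scale (adjusted p = 0.00161 and 0.0285).

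The promoters of 3 of these genes are shown because they differ in matches to the core of a hypoxia response element. They are the 250 bases before the RefSeq gene start in GRCh38.p14, read 5′ to 3′ on the gene's own strand, and capitals mark ACGTG or GCGTG on either strand. They are EGLN3 (chr14:33951075-33951324, minus strand), LDHA (chr11:18394313-18394562, plus strand) and EGLN1 (chr1:231422288-231422537, minus strand).
EGLN3: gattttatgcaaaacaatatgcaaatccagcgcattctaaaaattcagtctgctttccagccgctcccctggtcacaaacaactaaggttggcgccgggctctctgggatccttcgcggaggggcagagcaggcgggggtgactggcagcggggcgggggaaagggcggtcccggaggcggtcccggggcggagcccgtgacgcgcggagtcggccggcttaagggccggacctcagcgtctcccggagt
LDHA: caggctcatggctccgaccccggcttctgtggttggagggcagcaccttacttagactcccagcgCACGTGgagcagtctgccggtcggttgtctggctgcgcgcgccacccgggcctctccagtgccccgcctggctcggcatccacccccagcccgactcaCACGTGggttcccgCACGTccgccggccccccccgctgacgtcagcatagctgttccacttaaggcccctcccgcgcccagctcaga
EGLN1: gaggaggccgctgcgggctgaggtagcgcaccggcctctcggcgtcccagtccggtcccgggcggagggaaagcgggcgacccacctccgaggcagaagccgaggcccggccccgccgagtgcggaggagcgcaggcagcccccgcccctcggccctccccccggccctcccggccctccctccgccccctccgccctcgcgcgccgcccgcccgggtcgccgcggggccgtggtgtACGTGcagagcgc
EGLN3, the most strongly lowered member of the HIF list, held 0 matches in this window, LDHA held 5 and EGLN1 held 1. The matches in LDHA overlap in part, because CACGTG reads the same on both strands and was counted once for each. Within 250 bases before to 50 after the start, a match was found in 26 of 32 HIF-induced genes with a promoter sequence (81.2%) and in 14 of the 18 that were lower in KO (77.8%). The share was 48.4% among all 27305 promoters, 63.6% among tested genes, 61.7% among genes higher in KO and 62.9% among genes lower in KO. A match says only that these letters are present, and elements farther from the start were not searched.

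The largest changes in KO lay outside the HIF list, with EGLN3 as the exception. By rule, the 12 called genes with the largest change in each direction were taken among genes with a mean of at least 100 counts and no overlap between the groups. On the lower side stood LAYN, a hyaluronan receptor, which had 24.7, 26.3 and 25.02 CPM in WT and 0.155, 0.488 and 0.413 CPM in KO (log2 fold change -6.11), while PT2385-treated cells averaged 25.1 CPM. C1QL1, a secreted complement-like protein of synapses, had 158, 151 and 130.3 CPM in WT and 2.71, 2.65 and 3.58 CPM in KO (-5.61). CP, the copper-carrying ferroxidase ceruloplasmin, had 97.1, 94.3 and 117 CPM in WT, 2.397, 2.37 and 3.24 CPM in KO and a mean of 12.7 CPM with PT2385 (-5.26). In each of these genes all KO libraries were below all WT libraries by a wide margin. SEMA6A, a membrane-bound axon guidance ligand, went from 317, 303 and 309 CPM to 4.25, 10.1 and 8.67 CPM (-5.32). The others were SLITRK2 (-6.04), the nuclear pore protein NUP210 (-5.36), AIF1L (-4.44), the sulfatide-forming sulfotransferase GAL3ST1 (-4.18), the Wnt receptor FZD8 (-4.12), EGLN3, and ROR2 and PTGES, whose counts are given below.

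On the higher side stood COL14A1, a fibril-associated collagen, which had 6.28, 6.22 and 7.27 CPM in WT and 88.2, 106 and 87.4 CPM in KO (log2 fold change 3.83, adjusted p = 2.82e-09). WNT7B, a Wnt ligand, had 14.3, 19.1 and 21.5 CPM in WT, 186, 191 and 216 CPM in KO and a mean of 44.8 CPM with PT2385 (3.43). HMGA1, an architectural chromatin protein, had 3.77, 3.60 and 4.21 CPM in WT and 58.1, 49.1 and 46.7 CPM in KO (3.73), against a mean of 6.48 CPM with PT2385. The WT and KO values of these genes did not overlap. The stress cytokine GDF15 had 2.85, 2.78 and 2.56 CPM in WT and 43.4, 36.7 and 24.8 CPM in KO, all KO libraries being higher though unequal (3.67). NRCAM, a neuronal adhesion molecule, rose by 3.96 on the log2 scale, the secretory kinase FAM20C by 4.56, the basement membrane protein NID2 by 3.29, LY6E by 3.41 and the aggrecan protease ADAMTS15 by 3.21. STUM, MARK1 and CCN3, which were at the floor in WT, completed the list.

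**Figure D2:**
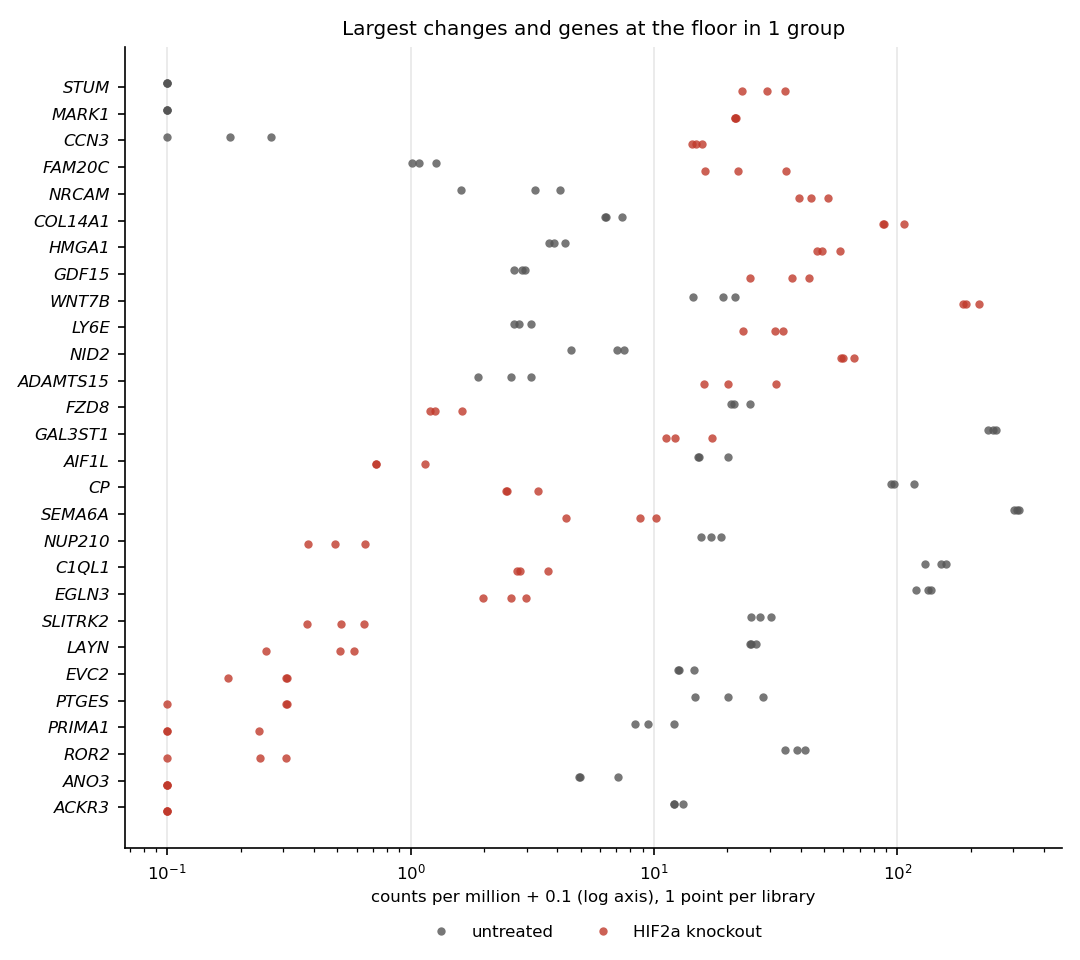
CPM + 0.1 (log axis) in each WT (untreated, grey) and KO (red) library for the 12 largest called rises, the 12 largest called falls and the genes at the floor of detection in 1 group, with 1 point per library and genes ordered by log2 fold change. The points of the groups do not overlap, as the choice of the genes required; a point at 0.1 marks a library with no counts.

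There were 9 genes that had 3 counts or fewer in each library of 1 group and at least 50 in each library of the other, so that their counts are given and not a fitted change. MARK1, a microtubule-regulating kinase, had 0 counts in each WT library and 277, 309 and 311 counts in KO, at least 85.7-fold higher when each WT library is set to the floor of 3 counts. STUM had 0 counts in WT and 374, 492 and 331 counts in KO, at least 114-fold higher. CCN3, a secreted matrix-associated growth regulator, had 2, 1 and 0 counts in WT and 202, 213 and 206 in KO. These were the 3 of the 9 genes that were at the floor in WT, and MARK1 and STUM both lie on the long arm of chromosome 1. At the floor in KO were ACKR3, the scavenging chemokine receptor, with 13.1, 12.03 and 11.97 CPM in WT and 0 counts in each KO library (at least 57.8-fold lower), and ANO3, with 58, 59 and 85 against 0 (at least 26.1-fold lower). ROR2, a Wnt receptor tyrosine kinase, went from 463, 420 and 506 counts to 0, 2 and 3. PTGES, which makes prostaglandin E2, went from 334, 245 and 178 counts to 0, 3 and 3. The 2 others were EVC2, a ciliary protein (174, 152 and 152 against 1, 3 and 3 counts) and PRIMA1 (112, 147 and 100 against 0, 0 and 2 counts). Of these, ROR2 had 191 to 238 counts and ANO3 49 to 60 counts in the PT2385-treated libraries, so both were still counted there.

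Most of the interferon-stimulated genes, which hold back viruses, were higher in KO. Of 43 tested members, 27 were higher, 1 was lower and 15 did not pass the test, with a median log2 fold change of 0.68, against 14.7% of all tested genes higher. Leaving out each library in turn, 24 of the 27 higher calls held in all 6 fits and the 1 lower call, IFI27, did not. TRIM22, an antiviral ubiquitin ligase, had 9.38, 9.33 and 9.497 CPM in WT and 37.1, 36.5 and 26.4 CPM in KO. BST2 (tetherin), which holds budding virus at the cell surface, had 99.3, 98.9 and 87.6 CPM in WT and 161, 161 and 152 CPM in KO. Every KO library was above every WT library in both, with log2 fold changes of 1.82 (adjusted p = 3.55e-06) and 0.73 (adjusted p = 1.42e-05). OAS1, which senses double-stranded RNA, was low in WT at 0.419, 0.491 and 0.165 CPM and had 6.57, 6.203 and 3.65 CPM in KO (3.89). MX2, OASL and RSAD2 were also near the floor in WT, with at most 2, 13 and 3 counts in a library, and had 21 to 32, 56 to 102 and 14 to 30 counts in KO. Of the transcription factors on the list, IRF1 (log2 fold change 0.12) and IRF9 (0.31) did not pass the test, while STAT2 was higher (0.68).

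Among genes of antigen presentation, 8 of 18 tested were higher and 3 lower, of which 7 and 0 held in every fit without 1 library. HLA-E had 84.8, 87.2 and 88.8 CPM in WT and 111, 122.7 and 126 CPM in KO. The groups did not overlap, and the log2 fold change was 0.47. PSMB9, an immunoproteasome subunit, rose by 1.17.

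The promoters of 2 interferon-stimulated genes that were higher in KO, chosen after their values were seen, are shown for matches to an interferon-stimulated response element. HERC5, the ligase that attaches ISG15 to proteins, had 2.85, 3.35 and 2.06 CPM in WT and 8.04, 10.5 and 9.78 CPM in KO (log2 fold change 1.78). IFI6 had 3.68, 3.35 and 3.39 CPM in WT and 13.7, 10.04 and 4.89 CPM in KO (1.45). KO was higher in all 3 libraries of both genes, although IFI6 varied more between them. Capitals mark GAAANNGAAA on either strand in the 250 bases before the start, for HERC5 (chr4:88456869-88457118, plus strand) and IFI6 (chr1:27672193-27672442, minus strand).
HERC5: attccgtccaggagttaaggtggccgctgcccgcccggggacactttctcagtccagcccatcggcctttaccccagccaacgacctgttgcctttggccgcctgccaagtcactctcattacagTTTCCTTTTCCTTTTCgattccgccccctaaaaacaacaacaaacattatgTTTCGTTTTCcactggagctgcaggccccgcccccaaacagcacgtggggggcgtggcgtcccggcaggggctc
IFI6: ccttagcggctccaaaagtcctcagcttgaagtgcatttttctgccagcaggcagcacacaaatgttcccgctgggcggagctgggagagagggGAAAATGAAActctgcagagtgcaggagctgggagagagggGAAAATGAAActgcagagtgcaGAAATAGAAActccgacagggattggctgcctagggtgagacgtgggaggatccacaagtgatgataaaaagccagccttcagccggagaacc
Each window held 3 matches, which overlap in part in HERC5. In the window from 250 bases before to 50 after the start, such a match was found in 20 of 33 interferon-stimulated genes with a promoter sequence (60.6%) and in 12 of the 20 that were higher in KO (60%). The share was 3.65% among all promoters, 2.81% among tested genes, 3.74% among all genes higher in KO and 2.27% among those lower.

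Many genes from a list of known p53 targets, called damage-response genes here, were higher in KO, while many genes of DNA replication and mitosis were lower. DNA damage and p53 activity were not measured. Of 27 tested damage-response genes, 13 were higher (48.1%) and 1 lower (3.7%), with a median log2 fold change of 0.41. Of these calls, 11 and 1 held in every fit without 1 library. CDKN1A, which encodes the cyclin-dependent kinase inhibitor p21, had 45.7, 46.8 and 42.04 CPM in WT and 204, 233 and 180.1 CPM in KO. ZMAT3, an RNA-binding protein, had 43.6, 42.1 and 43.03 CPM in WT and 106, 111 and 112 CPM in KO. In both the KO libraries were all higher, with log2 fold changes of 2.20 (SE 0.0951, adjusted p = 3.72e-08) and 1.35 (SE 0.0624). RRM2B, the damage-induced ribonucleotide reductase subunit, rose by 1.15 on the log2 scale, the apoptosis effector BAX by 0.64 and PLK2 by 0.88. The death receptor TNFRSF10A was the member that fell (-0.65). CDKN1A averaged 67.9 CPM with PT2385 and was higher in KO in the direct test as well (log2 difference 1.59).

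In the list of DNA replication, 21 of 41 tested genes were lower and 0 were higher, and the median log2 fold change was -0.27. This count rested on single libraries: it was 13 without WT replicate 3, 13 without KO replicate 1 and 36 without KO replicate 3, and 13 calls held in all 6 fits. MCM5, a subunit of the replicative helicase, had 174, 169.6 and 183 CPM in WT and 119, 105 and 139.6 CPM in KO. MCM6, another subunit of it, had 141, 136 and 155 CPM in WT and 100.2, 103 and 116 CPM in KO. The groups did not overlap in either, but the highest KO library, replicate 3, came close to WT, and the log2 fold changes were -0.53 and -0.44. Of 46 mitotic genes, 23 were lower and 0 higher (median -0.22), with 16 calls that held in every fit. KIF23, a kinesin of cell division, had 96.8, 106 and 106 CPM in WT and 51.2, 55.6 and 61.0 CPM in KO (log2 fold change -0.88). CENPF, a kinetochore protein, had 581, 556 and 582 CPM in WT and 374, 317 and 314 CPM in KO (-0.77). Both fell in every KO library, and KIF23 lies on chromosome 15 and CENPF on chromosome 1, in regions that were low as a whole. Outside such regions, 15 of 38 mitotic genes and 18 of 38 replication genes were lower, and 0 were higher in either list. Among 54 tested histone genes, 15 were lower and 2 higher (0 higher without WT replicate 2, WT replicate 3 or KO replicate 2). The lower count was 8, 7 and 7 without WT replicate 1, WT replicate 2 and KO replicate 1 and 23 without KO replicate 3, and 6 lower calls held in every fit. H4C13 was one of them, with 23.4, 29.2 and 21.5 CPM in WT and 8.04, 9.06 and 7.85 CPM in KO.

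**Figure D3:**
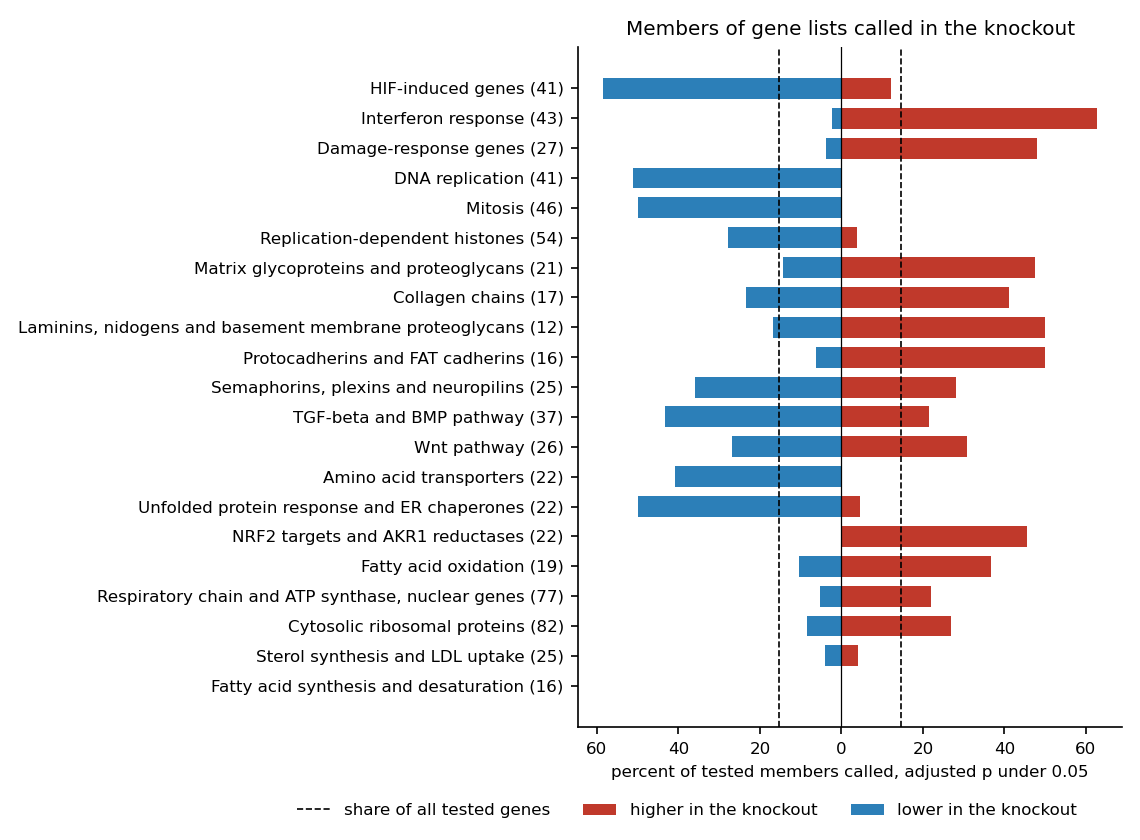
Percent of the tested members of each gene list that were called higher (right) or lower (left) in KO than in WT, with the numbers tested beside the list names. Dashed lines mark the shares among all tested genes (14.7% higher, 15.4% lower). Interferon-stimulated genes reach 62.8% on the higher side, and HIF-induced genes reach 58.5% on the lower side.

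Extracellular matrix genes changed strongly and in both directions. FN1, which encodes fibronectin, had 4574, 4652 and 3330 CPM in WT and 27670, 26040 and 22150 CPM in KO, and took 2.18% to 2.77% of all counts in the KO libraries. The KO libraries were all several-fold above the WT libraries (log2 fold change 2.60, SE 0.125, adjusted p = 7.97e-08). With PT2385 FN1 averaged 8500 CPM, and KO exceeded this by 1.57 on the log2 scale in the direct test. Of 17 tested collagen genes, 7 were higher and 4 lower, and all 11 calls held in every fit without 1 library. COL6A1, a chain of the microfibrillar collagen VI, had 17.6, 17.8 and 18.99 CPM in WT and 87.5, 81.8 and 100.2 CPM in KO (2.31). COL6A3, another chain of collagen VI, moved the other way, from 190.5, 199 and 174 CPM in WT to 31.3, 25.9 and 19.4 CPM in KO (-2.88). KO and WT libraries were separate for both chains. COL12A1 rose by 3.12 on the log2 scale, and COL8A1 and COL7A1 fell by 1.63 and 0.48.

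Of 21 tested matrix glycoproteins, 10 were higher and 3 lower, and 8 and 3 calls held in every fit. TGFBI, a TGF-beta-induced adhesion protein, had 1832, 1680 and 1523 CPM in WT and 649, 645 and 578 CPM in KO, every KO library being lower (-1.43). LTBP1 (-5.21, or -6.37 without KO replicate 1) and MATN2 (-1.01) were the others that fell, and SPOCK1 (0.96) and TINAGL1 (0.85) were among those that rose. Laminins and their partners were higher for 6 and lower for 2 of 12 tested genes, with NID2 and NID1 (log2 fold change 0.5021) among the higher and LAMC1 among the lower. LAMA5, which overlaps ADRM1, was higher too (2.81). Matrix proteases and their inhibitors were evenly divided, with 11 of 32 higher and 11 lower. ADAMTS5, a protease that cuts aggrecan, had 10.5, 14.2 and 12.1 CPM in WT and 92.8, 93.7 and 91.6 CPM in KO. From the coagulation list, F3, the tissue factor that starts clotting, had 127, 144 and 141 CPM in WT and 9.82, 7.32 and 12.3 CPM in KO. These were separated in opposite directions, ADAMTS5 being higher (2.92) and F3 lower (-3.80).

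Cell adhesion molecules changed member by member. Of 18 tested integrins, 4 were higher (22.2%) and 4 lower (22.2%). ITGB8, which activates latent TGF-beta, had 339, 423 and 353 CPM in WT and 91.02, 101 and 80.9 CPM in KO (-2.03), whereas ITGB6, with a like role, rose by 1.40. VCAM1, an immunoglobulin-type adhesion molecule of inflamed endothelium and injured tubule, had 18.7, 17.8 and 17.3 CPM in WT and 111, 101 and 158 CPM in KO, all KO libraries being higher (2.78). Of 16 tested protocadherins and FAT cadherins, 8 were higher and 1 lower, but 5 were higher without WT replicate 3 and 5 of the higher calls held in every fit. FAT4, a large cadherin that restrains growth, had 45.04, 45.7 and 45.5 CPM in WT and 69.98, 84.96 and 67.4 CPM in KO, and its groups did not overlap (0.71). It averaged 24.0 CPM with PT2385, lower than in KO by the direct test (log2 difference 1.62).

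Epithelial genes were also divided. Keratin and desmosome genes were higher for 7 and lower for 2 of 16 tested, with KRT18 (0.85), KRT15 (1.21) and plakoglobin JUP (2.08) among the rises. DSP, which encodes desmoplakin, had 1.84, 2.21 and 1.82 CPM in WT and 0 in all 3 KO libraries. Claudins and tight junction genes were higher for 4 and lower for 6 of 20 (3 lower without WT replicate 3), among which CLDN2 rose by 2.66 and LSR fell by 3.33. Of 10 tested transition factors between epithelial and mesenchymal states, 1 was higher, 2 were lower and 7 did not pass the test. The share called was 30%, against 30.1% of all tested genes. ESRP2, which directs epithelial splicing, fell by 2.96, and SNAI2, a repressor of epithelial genes, rose by 0.93. ESRP2 lies in a 10 Mb window that stood apart as a whole, as described with the chromosomes. Of 16 tested renal transcription factors, 0 were higher and 6 lower, of which 5 calls held in every fit. PAX2 had 32.99, 30.8 and 38.1 CPM in WT and 11.3, 16.03 and 13.8 CPM in KO, with no overlap (-1.30), and WT1 fell by 0.78. MEIS2 fell by 0.82 and lies on chromosome 15, and outside the low regions 2 of 11 renal factors were lower. Markers of the proximal tubule brush border were divided, MME falling by 1.48 and ANPEP rising by 0.76.

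Signalling by secreted factors changed at the level of ligands, receptors and feedback genes. Of 25 tested semaphorins, plexins and neuropilins, 7 were higher and 9 lower. SEMA3A, a secreted ligand, had 4.44, 4.17 and 4.29 CPM in WT and 21.9, 21.2 and 23.5 CPM in KO, and its receptor NRP1 had 90.4, 85.3 and 84.7 CPM in WT and 224, 289.9 and 213 CPM in KO. Both were higher in every KO library (2.37 and 1.48), and SEMA3F rose by 1.96. SEMA4B, on chromosome 15, fell from 461, 416 and 445 CPM to 95.3, 102 and 90.8 CPM (-2.20). SEMA5B fell by 5.47 on the log2 scale, and by 7.19 without KO replicate 2.

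Of 26 tested genes of Wnt signalling, 8 were higher (30.8%) and 7 lower (26.9%). The lower count was 3 without WT replicate 2 and 4 without WT replicate 3, and 6 higher and 2 lower calls held in every fit. The receptor FZD8 had 24.8, 20.6 and 21.2 CPM in WT and 1.16, 1.53 and 1.101 CPM in KO, and all KO libraries were lower (-4.12). Besides WNT7B, the transcription factor TCF7L2 (0.93) and the R-spondin receptor LGR4 (0.89) were higher. Of 37 tested genes of TGF-beta and BMP signalling, 8 were higher and 16 lower, with 6 and 11 calls that held in every fit. ID3, an inhibitor of differentiation that BMPs induce, had 93.4, 91.96 and 92.6 CPM in WT and 40.5, 50.04 and 46.4 CPM in KO. Its KO libraries were all lower (-1.02), while PT2385-treated cells averaged 131 CPM, and the direct log2 difference was -1.52. BMP8B fell by 2.11, the co-receptor TGFBR3 rose by 2.46 and the latent TGF-beta binding protein LTBP2 by 2.29.

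Of 18 tested Notch pathway genes, 6 were higher (33.3%) and 5 lower (27.8%). The ligand JAG1 had 67.2, 53.6 and 57.6 CPM in WT and 110.4, 119 and 143 CPM in KO, with no overlap (1.06), and averaged 313 CPM with PT2385, above KO (log2 difference -1.34). DTX4 rose by 1.60, and the Notch-modifying LFNG and the target HEY1 fell by 0.69 and 1.01. In the insulin and IGF list, 6 of 15 were higher and 4 lower. IRS2, the adaptor of the insulin receptor, had 733, 752 and 821 CPM in WT and 90.2, 96.1 and 123.6 CPM in KO, a fall in every KO library (-2.90). The receptor IGF1R, on chromosome 15, fell by 1.04, and of the binding proteins IGFBP3 fell by 0.95 while IGFBP4, IGFBP6 and IGFBP7 rose by 1.28, 1.15 and 0.66. The feedback inhibitors of EGF receptor signalling ERRFI1 and LRIG1 fell by 2.21 and 2.0. In sphingosine 1-phosphate signalling, the receptors S1PR1 and S1PR3 rose by 2.52 and 2.79, and the exporter SPNS2 fell by 3.73. All 4 tested APOL genes changed. APOL1, the trypanolytic factor tied to kidney disease, had 724, 718 and 828 CPM in WT and 113, 123.6 and 125 CPM in KO. It fell in all KO libraries (-2.65), as did APOL2 (-1.22), while APOL3 (1.497) and APOL6 (0.72) were higher.

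Amino acid transporters that changed were all lower in KO. Of 22 tested, 9 were lower and 0 higher, with a median log2 fold change of -0.30, and 7 calls held in every fit without 1 library. SLC7A5, the carrier of large neutral amino acids, had 2216, 2288 and 2374 CPM in WT and 591, 610.0 and 804 CPM in KO. SLC3A2, its heavy chain partner, had 309, 323 and 331 CPM in WT and 158, 149 and 186 CPM in KO. The KO libraries were lower without overlap in both, by 1.78 and 0.97 on the log2 scale, and SLC7A5 lies on chromosome 16, which was low as a whole. The taurine transporter SLC6A6 had 421, 337 and 327 CPM in WT and 116, 141 and 102 CPM in KO (-1.60). Genes of the unfolded protein response were lower for 11 and higher for 1 of 22 tested, but the lower count was 5 without WT replicate 1, 3 without WT replicate 2 and 7 without KO replicate 2. PDIA4 of this list fell by 0.32. In the separate list of tRNA synthetases and ATF4 stress genes, 1 of 28 tested genes was higher and 5 lower. The lower share was 17.9%, against 15.4% of all tested genes, and 0 higher and 3 lower calls held in every fit. TRIB3, a stress-induced pseudokinase of that list, fell by 1.76.

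Genes of redox metabolism that changed were all higher. Of 22 tested genes of the NRF2 response and the aldo-keto reductases, 10 were higher and 0 lower, with a median log2 fold change of 0.20, and 6 calls held in every fit. AKR1B1, the aldose reductase that makes sorbitol, had 1450, 1484 and 1490 CPM in WT and 2912, 2907 and 3000 CPM in KO. These levels were tight within groups and close to 2-fold apart (log2 fold change 0.9955, adjusted p = 1.11e-07), and PT2385-treated cells averaged 1528 CPM. AKR1C3 and AKR1B10, relatives that reduce steroids and retinal, rose by 3.66 and 2.05. AKR1C3 was low in WT, with at most 10 counts in each WT library and at least 50 in each KO library. Fatty acid oxidation was higher for 7 and lower for 2 of 19 tested genes. CPT1A, which brings fatty acids into mitochondria, had 8.04, 11.9 and 11.6 CPM in WT and 39.9, 33.9 and 49.8 CPM in KO, all KO libraries being higher (1.97). PPARA rose by 0.69 and HADHB by 0.38. In sterol synthesis 1 of 25 tested genes was higher and 1 lower, although 11 were higher without KO replicate 3.

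In the citric acid cycle 6 of 25 genes were higher (24%) and 6 lower (24%). IDH2, the mitochondrial isocitrate dehydrogenase on chromosome 15, had 77.4, 71.7 and 73.7 CPM in WT and 25.8, 33.9 and 31.2 CPM in KO, with no overlap (-1.29). MDH2 and OGDH rose by 0.41 and 0.43, and pyruvate carboxylase PC fell by 1.15. Nuclear-encoded genes of the respiratory chain were higher for 17 (22.1%) and lower for 4 (5.19%) of 77. Ribosomal protein genes were higher for 22 (26.8%) and lower for 7 (8.54%) of 82. Of all tested genes, 14.7% were higher and 15.4% lower. Calls in either direction covered 27.3% and 35.4% of these lists, against 30.1% of all tested genes. The counts depended on single libraries. For the respiratory chain the higher count was 9, 10 and 11 without WT replicates 1, 2 and 3 and 9 without KO replicate 2, the lower count was 2 without WT replicate 3 or KO replicate 1, and for ribosomal proteins the higher count was 7 and 10 without WT replicates 1 and 2 and 11 without KO replicate 2. The medians were 0.17 and 0.14 on the log2 scale. The falls in both lists were mostly on the chromosomes that were low as a whole: outside those regions, 1 of 72 respiratory chain genes and 1 of 75 ribosomal protein genes were lower. In the lysosome list, 13 of 41 were higher (31.7%) and 4 lower (9.76%). Without WT replicate 1, 8 were higher, and without WT replicate 1 or KO replicate 1, 2 were lower. CTSD, an abundant cathepsin, rose by 0.70. Iron genes were divided, with 4 of 14 higher (28.6%, or 2 genes without WT replicate 3) and 4 lower (28.6%). FTL (ferritin light chain) rose by 0.55 and TFRC (the transferrin receptor) fell by 0.39.

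The changes in KO were uneven along the chromosomes. On chromosome 15, 327 of 498 tested genes were lower (65.7%) and 10 higher, with a median log2 fold change of -0.57, or 0.675-fold. On chromosome 16, 355 of 719 were lower (49.4%) and 19 higher, with a median of -0.35, or 0.787-fold. Together these held 682 of the falls, 29.2% of all genes that were lower in KO. The shift covered most genes and not a few: 89.6% of tested genes on chromosome 15 and 84.3% on chromosome 16 had a negative log2 fold change, against 46.3% of the 13975 genes on other chromosomes. The middle 50% of genes ran from -0.776 to -0.358 on chromosome 15 and from -0.533 to -0.132 on chromosome 16. With genes changed over 2-fold left out, the median of chromosome 15 was -0.529. No other whole chromosome stood so far apart, the medians of the rest minus that of all genes running from -0.048 on chromosome 17 to 0.102 on chromosome 19.

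Each library showed the shift. Relative to the mean of the WT libraries, the median log2 level of chromosome 15 genes was -0.551, -0.562 and -0.563 in KO replicates 1, 2 and 3, and between -0.015 and 0.010 in the WT libraries. For chromosome 16 the KO values were -0.336, -0.346 and -0.314, and the WT values lay between -0.007 and 0.005. The PT2385-treated libraries stayed between -0.028 and -0.008 on chromosome 15 and between -0.019 and 0.053 on chromosome 16. KO was thus separate from both other groups in all 3 libraries on both chromosomes. In the direct test against PT2385-treated cells the median log2 difference was -0.556 on chromosome 15 and -0.358 on chromosome 16. DNA copy number was not measured in these libraries, so its part in these shifts was not tested.

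**Figure D4:**
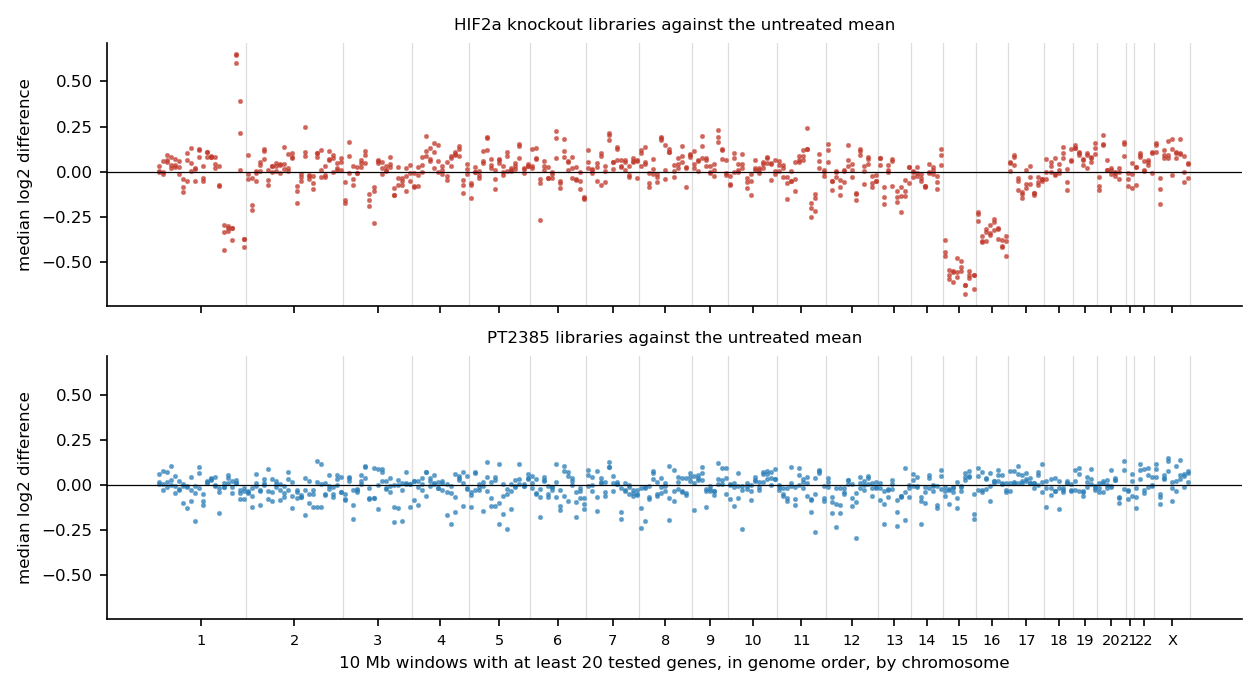
Median log2 difference of tested genes from the mean of the WT libraries, less that of all tested genes, in 10 Mb windows along each chromosome, with 1 point per window and library for KO (upper panel) and PT2385-treated cells (lower panel). The points of chromosome 15 lie between -0.677 and -0.38 in KO and between -0.187 and 0.077 with PT2385, and those of chromosome 16 between -0.466 and -0.224 in KO and between -0.089 and 0.096 with PT2385.

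Within the chromosomes, 22 of 255 windows of 10 Mb stood apart by a median at least 0.25 from that of all genes. They were all 8 windows on chromosome 15 (-0.385 to -0.646), all 8 on chromosome 16 (-0.259 to -0.403), 5 on chromosome 1 and 1 on chromosome 9 (110 to 120 Mb, 0.25). The nearest window that did not reach this limit was at 160 to 170 Mb of chromosome 6 (-0.235), and that of chromosome 9 was just past it and fell short in 5 of the 6 fits without 1 library. The 22 windows held 1500 tested genes, of which 99 were higher and 772 lower. Among the 13692 genes elsewhere, 15.6% were higher and 11.4% lower, with a median of 0.027.

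The long arm of chromosome 1 was divided into stretches that were low and high in turn, with bounds chosen after the data were seen. The high stretches were runs of 2 Mb windows picked for a high median in KO, so their level there was set by the choice. From 178 to 220 Mb, 91 of 181 tested genes were lower and 13 higher (median log2 fold change -0.35), although some windows in it were near 0, as at 204 to 206 Mb (0.023). From 220 to 228 Mb, 40 of 56 were higher and 3 lower (0.86). A short stretch from 228 to 230 Mb was near 0 (-0.04, 18 genes), the next, of 4 Mb from 230 Mb on, was high again (0.98, 16 of 20 genes higher), and the last, up to 248 Mb, was low (-0.36, 27 of 63 lower). The 3 KO libraries gave 0.751, 0.786 and 0.868 for the first high stretch and 1.013, 1.069 and 0.873 for the second, so the steps were shared by all of them. In the PT2385-treated libraries the same 5 stretches ranged from -0.094 to 0.131.

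**Figure D5:**
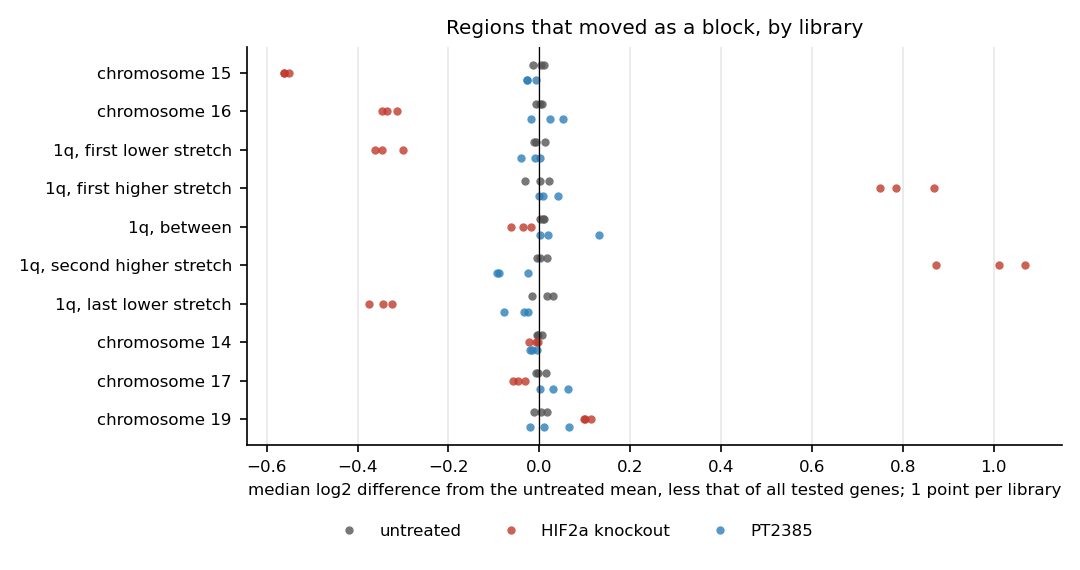
Median log2 level, relative to the mean of the WT libraries and less that of all tested genes, of tested genes on chromosomes 15 and 16, in 5 stretches of the long arm of chromosome 1, and on chromosomes 14, 17 and 19 for comparison, with 1 point per library (WT, grey; KO, red; PT2385, blue). KO points lie between -0.563 and -0.551 on chromosome 15 and between 0.751 and 1.069 in the high stretches of chromosome 1, where those of PT2385 lie near 0.

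Single genes in these regions were not equally affected. On chromosome 15, WDR72 fell by 6.08 on the log2 scale, and NEDD4, a ubiquitin ligase, had 144, 146 and 156 CPM in WT and 39.9, 34.9 and 47.2 CPM in KO (-1.87). TPM1, the actin-binding tropomyosin, had 994, 1030 and 1003 CPM in WT and 477, 444 and 478 CPM in KO (-1.11). The imprinted gene NDN had 12.98, 11.3 and 14.7 CPM in WT and 3.87, 2.93 and 2.48 CPM in KO (-2.08). The last 3 were lower in every KO library, by more than the chromosome's median. On chromosome 16, the membrane protein EMP2 had 56.3, 58.6 and 65.9 CPM in WT and 24.1, 26.6 and 27.1 CPM in KO, with no overlap (-1.22). CMIP fell by 1.17, the glycolytic enzyme ALDOA fell by 0.88, the metallothionein MT1F by 2.44 and the lipid transporter ABCA3 by 2.26. In the low part of chromosome 1, LAMC1, the laminin γ1 chain, had 608, 621 and 602 CPM in WT and 404, 385 and 378 CPM in KO, lower in each KO library (-0.65). KMO, of the kynurenine pathway, had 13.8, 11.4 and 11.2 CPM in WT and 0.696, 1.04 and 0.6196 CPM in KO (-3.93), but it was also low with PT2385, at a mean of 0.973 CPM. In the high part, DNAH14, a dynein heavy chain, had 14.1, 13.4 and 13.5 CPM in WT and 53.7, 51.5 and 52.1 CPM in KO (1.94, adjusted p = 2.72e-08), against a mean of 13.5 CPM with PT2385. MARK1 and STUM, which were not counted in WT, lie in this part too. On chromosome 9, PTGR1 rose by 1.08 and RGS3 by 1.18.

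The gene lists were counted again without the 22 windows that stood apart. Interferon-stimulated genes were then higher for 27 and lower for 1 of 42, with a median of 0.70, and damage-response genes higher for 12 and lower for 1 of 24. HIF-induced genes were lower for 23 and higher for 5 of 40, with a median of -0.37, EGLN1 still being among the 5, because the window from 230 to 240 Mb of chromosome 1, which holds both high and low genes, did not stand apart. Amino acid transporters were lower for 7 and higher for 0 of 19. Of the 23 lower calls among mitotic genes 15 remained, and of the 6 among renal transcription factors 2 remained. Over all genes, 3695 calls remained, of which 2131 were higher and 1564 lower.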

How the data were processed

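RNAseq counts of 6 libraries were analysed, 3 of untreated WT cells and 3 of KO cells, with 3 PT2385-treated libraries beside them. The values are raw counts of reads per gene, which the authors deposited without normalization. Per the paper's methods and the labels, FastQC, cutadapt, STAR with GRCh38 (hg38) and featureCounts were used on the reads, in that order. Tool versions, annotation release and strandedness are not given in the sources used here. Of 9 columns of the table, 0 were left without a sample. Of 58735 gene identifiers, 58207 were paired with a symbol and position through the GRCh38 annotation. Totals were 11881000 to 14730081 counts per library, and replicates of a group differed by more than counting error.

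Groups were compared with edgeR 4.0.16 (limma 3.58.1) in R 4.3.3: filterByExpr, TMM, the quasi-likelihood test, and p adjusted by Benjamini-Hochberg, with an adjusted p under 0.05 as the threshold. All tested genes entered each adjustment. The same steps were run on simulated counts with few changed genes and no shifted chromosomes, so these do not measure the error rate here. The study used DESeq2, which was run here as an alternative (1.42.0). Log2 CPM used a prior count of 2, and the floor of detection was 3 counts. Tables and figures were made with Python 3.11.15, pandas 2.3.3 and matplotlib 3.10.9. Promoters came from RefSeq (GRCh38.p14), with 10364 tested genes matched.

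Genes were named by rule: EPAS1, the 12 largest called changes in each direction, up to 3 called members per direction of each list with the smallest p, all tested HIF members, up to 2 per window that stood apart, and genes at the floor. Some genes that this rule takes are not reported here. Marker genes of other cell types, PAX8, KRT8, the 5 neighbours of EPAS1, PLK2, HERC5, IFI6, MX2, OASL, RSAD2, STAT2, IRF1 and IRF9 were named outside it, after their values were seen. The gene lists and the comparison itself were chosen with earlier results of these data known. Lists are described by counts and medians, with no set test. Alternatives were DESeq2, 3 other scalings, other count filters, all 9 libraries in 1 model, a block for the replicate number, stricter thresholds, other window sizes, another floor and leaving out each library. Counts without the windows that stood apart and the finer stretches of chromosome 1 were added after the data were seen.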

Additional observations from a re-analysis of the deposited data

How the results depend on the processing

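The number of differentially expressed genes depended on the threshold. At an adjusted p under 0.01, 2788 genes differed (1314 higher, 1474 lower), and 882 (455 higher, 427 lower) in a test against a 1.5-fold change. DESeq2 gave 3835, other scalings 4564 to 4582, other filters 4212 and 5216, and a single model of all 9 libraries 4595. Leaving out 1 library gave 3344 to 5094 genes, of which 1543 to 2481 were higher and 1801 to 2613 lower. EPAS1 was lower in each of these fits, with log2 fold changes from -3.62 to -3.46 without 1 library.

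Same-numbered WT and KO libraries deviated together only in part, with correlations of 0.314, 0.053 and 0.478 for replicates 1, 2 and 3. Each WT library correlated best with the KO library of its number. KO replicate 2, however, correlated better with WT replicate 1 (0.297) than with WT replicate 2. The labels do not say what same-numbered libraries share, so the block was kept as an alternative. With the number as a replicate block, 5501 genes were called (2730 higher, 2771 lower) in KO against WT and 3783 in KO against PT2385. The ribosomal protein genes called higher were then 40 instead of 22, and the DNA replication genes called lower 34 instead of 21. List counts that stayed under 5 genes moved by up to 3 genes without 1 library.

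Windows of 5 Mb gave 52 of 489 that stood apart, including all 17 on chromosome 15, all 14 on chromosome 16 and 11 on chromosome 1, and windows of 20 Mb gave 13 of 142. Leaving out 1 library gave 21 to 22 windows of 10 Mb, with 7 of 8 on chromosome 16 without WT replicate 3 or KO replicate 2, and chromosome medians of -0.591 to -0.558 (15) and -0.366 to -0.335 (16). With a floor of 10 counts, 33 genes instead of 9 were at the floor in 1 group and had at least 50 counts in each library of the other.

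Over 14 settings and 195 named genes other than EPAS1, 2683 of 2705 values kept their direction and side of the threshold. A reversed sign was found only for uncalled genes: without 1 library, the log2 fold change of HK2 ran from -0.22 to 0.075 (positive without WT replicate 2, KO replicate 1 or KO replicate 2), that of PFKFB4 from -0.069 to 0.11 (negative without KO replicate 1) and that of VHL from -0.032 to 0.073 (negative without WT replicate 2 or KO replicate 3). The cause of these shifts was not tested, beyond the stricter thresholds themselves. A single knockout line, 3 libraries a group, counts of unknown strandedness and no measure of DNA copy number limit what the comparison can separate.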

Other observations

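Growth factor receptors and their ligands outside the EGF and FGF families were lower for 8 and higher for 4 of 18 tested genes, and 6 and 4 of these calls held in every fit without 1 library. PDGFB, a ligand of the platelet-derived growth factor receptors, had 154, 148 and 138 CPM in WT and 54.6, 52.6 and 57.0 CPM in KO. Its KO libraries were all lower (log2 fold change -1.42, adjusted p = 7.58e-08, edgeR). The receptor PDGFRB had 27, 31 and 28 counts in WT and 2, 2 and 0 in KO. KITLG, the ligand of KIT, went the other way, with 56.4, 53.6 and 62.8 CPM in WT and 172, 191 and 201 CPM in KO (1.71), and GAS6, a ligand of the TAM receptors, rose by 0.59. Of 35 chemokine, cytokine and NF-kB genes, 9 were higher (25.7%) and 7 lower (20%), where 14.7% of all tested genes were higher and 15.4% lower. The higher count was 5 without WT replicate 1 or WT replicate 3, and the lower count was 14 without KO replicate 3. IL18 had 2.43, 2.78 and 2.89 CPM in WT and 11.4, 11.9 and 16.8 CPM in KO, every KO library being higher (2.31), and the death ligand TNFSF10 fell by 1.51. Among coagulation genes, the protease-activated receptor F2RL1 fell by 2.43. Of 20 synaptic adhesion and vesicle genes, 8 were higher (40%) and 2 lower (10%). Of 426 numbered ZNF genes, 43 were higher (10.1%) and 37 lower (8.69%), both below the shares of all tested genes. The higher count was 25 without WT replicate 2 and 28 without WT replicate 3.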
